A study of Mus musculus with 24 samples.

Results

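Genes named as G protein-coupled receptors of the Gpr-numbered, adhesion, purinergic, lysophospholipid, cannabinoid, chemokine and complement families are described here, together with the Rgs genes. They were chosen by symbol: every gene whose array symbol begins with Gpr and a number, Adgr, P2ry and a number, Adora, Ccr or Cxcr and a number, C3ar, C5ar or Rgs and a number, or is one of Lpar1 to Lpar6, S1pr1 to S1pr5, Cnr1, Cnr2 and Cx3cr1, with Gpr85 and Rgs1 left out. The rule matched 135 of the 16593 genes with a symbol on the array, through 186 probes, and each gene was read from its probe of highest mean over the 24 arrays. A gene was tested when it lay above a floor of 6.455 log2 units on all 3 arrays of at least 1 group. This floor is the 99th percentile of 1303 probes for olfactory and vomeronasal receptors, taken here as a measure of background signal. By this filter 40 of the 135 genes (29.6%) were tested, against 45.6% of all genes with a symbol. The 40 were 15 of 56 Gpr-numbered genes, 7 of 10 nucleotide or nucleoside receptors, 4 of 12 lipid receptors, 2 of 17 chemokine receptors, 1 of 3 complement receptors, 3 of 18 adhesion receptors and 8 of 19 Rgs genes. The Gpr-numbered group rests on the symbol, and whether each product acts as a receptor was not tested.

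Macrophages from the bone marrow of female C57BL/6 mice, 6 weeks old, were compared in 8 groups of 3 arrays each. The groups labelled BET treat, named in the series title as treated with a bromodomain inhibitor, are called inhibitor cells, and each was taken at 0, 1, 2 and 4 h of LPS, the bacterial lipopolysaccharide that activates macrophages through Toll-like receptor signalling. Control cells were taken at the same 4 times. The compound, its dose, the time at which it was added relative to LPS and the number of mice behind each replicate are not stated in the labels. The design text calls the replicates biological. Transcript levels are log2 bead-array intensities, and values of 3 arrays are given in the order of replicates 1, 2 and 3.

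G protein-coupled receptors cross the plasma membrane, bind nucleotides, lipids, chemokines, protons or metabolites outside the cell, and pass the signal to heterotrimeric G proteins inside it. RGS proteins speed up GTP hydrolysis by the G protein alpha subunit and thereby end the signal. In macrophages these receptors steer migration toward damaged or infected tissue and tune cytokine release, and several are themselves induced or silenced when the cell meets LPS. BET proteins bind acetylated histones through their bromodomains and recruit transcription elongation factors, and inhibitors of this binding are known to lower part of the LPS-induced programme.

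Promoter sequences are shown for the 4 receptor genes that were lowered most by the inhibitor at 4 h among those with an entry in the promoter table. They are the 250 bases before the annotated start, taken from RefSeq for GRCm38.p6 and read 5′ to 3′ along the gene. P2ry13 is at chr3:59210883-59211132, Gpr84 at chr15:103310439-103310688, P2ry14 at chr3:59153493-59153742 (the first of its 4 annotated starts) and Gpr18 at chr14:121915889-121916138, all on the minus strand. Capitals mark motif matches that a search of both strands found, namely TGANTCA, bound by AP-1 factors, and GAAA, any 2 bases, GAAA, an interferon response form.
P2ry13: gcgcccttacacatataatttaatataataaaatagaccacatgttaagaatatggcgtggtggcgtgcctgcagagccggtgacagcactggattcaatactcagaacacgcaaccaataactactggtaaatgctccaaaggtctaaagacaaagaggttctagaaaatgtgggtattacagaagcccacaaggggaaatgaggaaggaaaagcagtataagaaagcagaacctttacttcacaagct
Gpr84: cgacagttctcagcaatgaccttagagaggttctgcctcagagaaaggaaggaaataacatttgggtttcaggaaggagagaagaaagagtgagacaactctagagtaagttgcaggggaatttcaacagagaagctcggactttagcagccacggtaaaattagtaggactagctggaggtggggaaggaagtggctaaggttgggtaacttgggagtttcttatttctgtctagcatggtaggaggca
P2ry14: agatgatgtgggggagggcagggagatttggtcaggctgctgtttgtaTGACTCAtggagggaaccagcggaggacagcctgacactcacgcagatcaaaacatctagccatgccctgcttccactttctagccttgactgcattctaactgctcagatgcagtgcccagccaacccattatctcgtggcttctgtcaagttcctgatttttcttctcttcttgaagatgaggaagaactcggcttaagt
Gpr18: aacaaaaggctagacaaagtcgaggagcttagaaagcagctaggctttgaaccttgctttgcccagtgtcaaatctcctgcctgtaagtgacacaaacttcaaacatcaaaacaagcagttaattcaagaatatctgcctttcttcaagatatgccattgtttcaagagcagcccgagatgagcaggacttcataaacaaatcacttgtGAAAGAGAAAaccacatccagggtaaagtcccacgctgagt
The match in P2ry14 reads TGACTCA and begins at -202 relative to the start, and that in Gpr18 reads GAAAGAGAAA and begins at -41. No match to either motif, to the NF-kB form (GGG, any 5 bases, CC) or to TGACG, the core of the cAMP response element, was found in the P2ry13 and Gpr84 promoters, which says only that these letters are not in the window searched. Counts for the tested genes were taken at the first listed start of each, in 300-base windows that add 50 bases after the start. The NF-kB form was in 15 of the 32 tested genes with an entry (46.9%, against 50.8% of all 32851 promoters, in which every start counts). TGACG was in 8 of the 32 (25%, against 20.8%), TGANTCA in 2 (6.25%, against 7.81%, Adora3 and P2ry14) and the interferon response form in 1 (3.12%, against 3.44%, Gpr18). These first-start shares lay close to those of promoters at large. With any annotated start counted, the NF-kB form was in 18 of the 32 genes and TGACG in 11. TGANTCA was then in 4 and the interferon response form in 2. No share over all genes was counted in that way.

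By their markers the cells were macrophages. Of 8 macrophage markers 6 were on the array and all 6 were above the floor, among them Adgre1, an adhesion receptor and one of the 40 (12.73 to 13.53 over the 24 arrays), and Lyz2 (14.75 to 15.07). No marker of T cells (5 on the array), B cells (4), NK cells (3), erythroid cells (3) or stromal cells (4) was above the floor, and 2 of 7 neutrophil markers (Mpo and S100a8) and 1 of 5 dendritic cell markers (Itgax) were. Of 4 mast cell or basophil markers 2 were above it (Cpa3 and Fcer1a), and the summed linear intensity of the 4 ran from 2290 in inhibitor cells at 1 h to 3240 in inhibitor cells at 4 h; its part in the results was not tested. In these bulk values fewer cells of a type and less RNA per cell cannot be told apart. Replicate 1 lay furthest from its group means in this series, by 0.20 to 0.25 log2 units (root mean square over all genes tested), against 0.12 to 0.17 for replicate 2 and 0.14 to 0.19 for replicate 3.

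**Figure D1:**
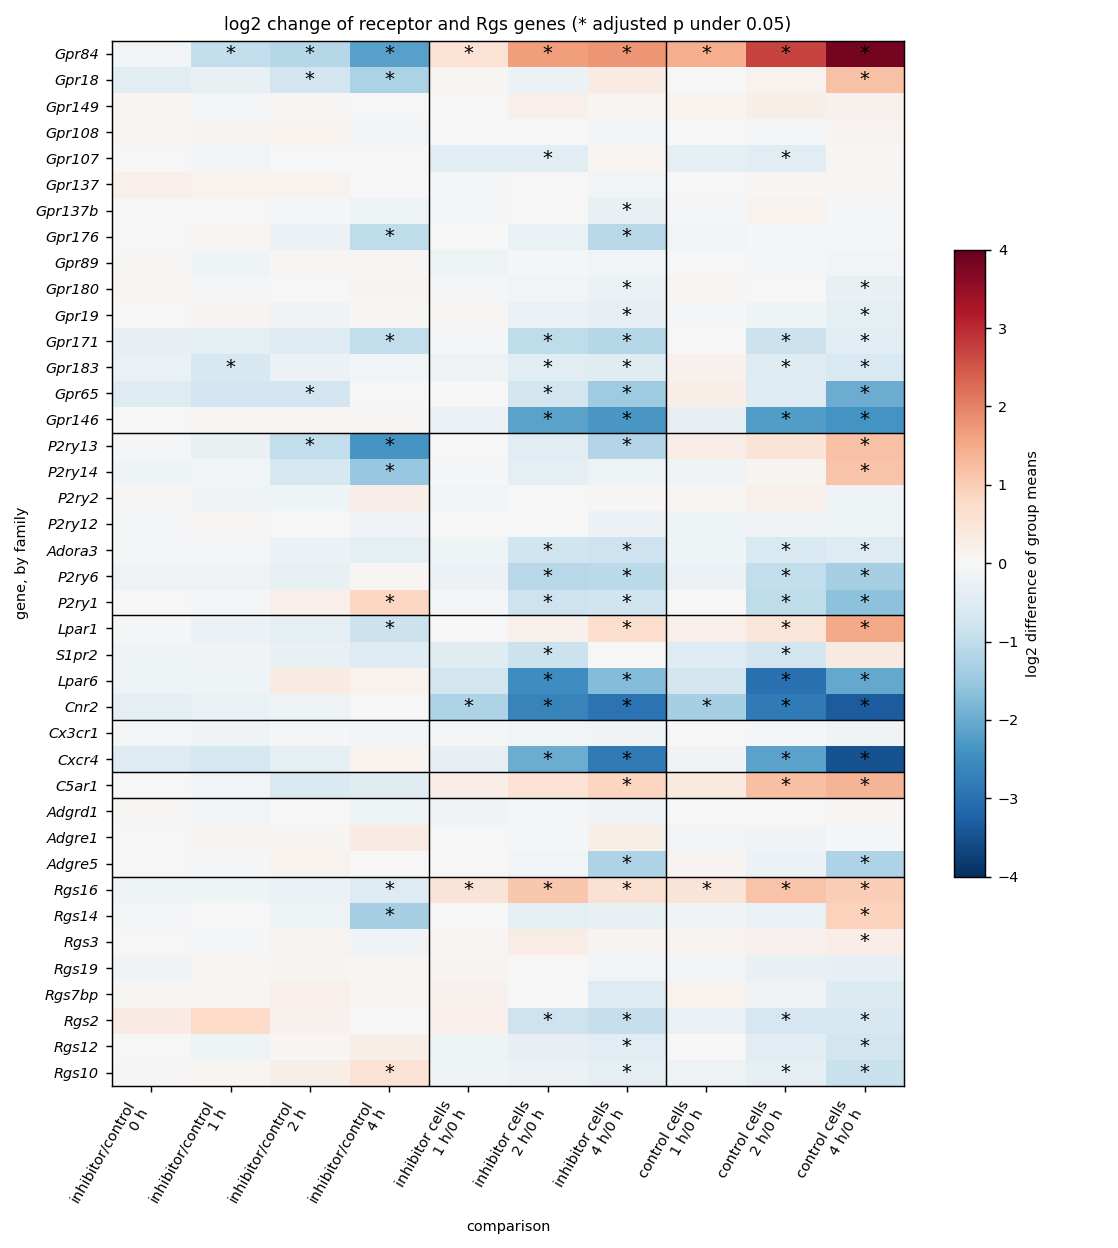
Log2 difference of group means (colour, from -4 to 4) for each of the 40 tested genes (rows, by family, divided by lines) in 10 comparisons (columns): inhibitor against control cells at each time, then LPS against 0 h in inhibitor cells and in control cells. Stars mark adjusted p under 0.05. Differences in which 1 group lies below the floor understate the change. No gene carries a star in the first column, and 11 do in the fourth.

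The first question of the design was what the inhibitor did at each time. Before LPS none of the 40 genes passed the test, and at 1 h 2 receptors were lower in inhibitor cells. At 2 h 4 receptors were lower. By 4 h 9 genes were lower, led by P2ry13 and Gpr84, and 2, P2ry1 and Rgs10, were higher. Calls rest on limma's moderated test over all 8189 genes tested, two-sided, at a Benjamini-Hochberg adjusted p under 0.05. This fit leaves out the pairing of samples by replicate number. With replicate number as a block more genes passed at 1 h and 2 h, as given below.

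At 0 h the limma test called 0 of 40 genes, where 0.159% of all genes tested were called. Without adjustment 4 of the 40 had p under 0.05, all lower in inhibitor cells. Log2 differences ran from -0.53 (Gpr65) to 0.32 (Rgs2), with a median of -0.02 beside -0.00 over all genes.

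At 1 h the calls were 0 higher and 2 lower, with 1.31% of all genes called (0.525% higher and 0.782% lower). Gpr84, a Gi-coupled receptor for medium-chain fatty acids, stood at 6.73, 6.61 and 6.43 log2 units in inhibitor cells (2 of 3 arrays above the floor) and at 7.66, 7.39 and 7.66 in control cells. The groups did not overlap, and the difference was -0.98 ± 0.16 (SE, limma adjusted p = 0.00155). Gpr183, an oxysterol receptor that guides immune cell positioning, was 6.09, 6.47 and 6.14 in inhibitor cells (1 of 3 arrays above the floor) and 6.83, 6.98 and 6.77 in control cells, a difference of -0.63 ± 0.11 (adjusted p = 0.00434). Both receptors were lower in every inhibitor array than in any control array at this time. Rgs2, which acts on Gq, was 7.55, 7.23 and 7.25 in inhibitor cells and 6.68, 6.58 and 6.45 in control cells, also without overlap. Its difference of 0.77 ± 0.20 had an adjusted p of 0.0559, and 0.0136 once replicate number entered as a block. Gpr65, a Gs-coupled proton sensor, differed by -0.76 ± 0.21 with an adjusted p of 0.103, and of 0.0441 with the block. With the block 4 genes thus passed at 1 h. Over all 8189 genes tested 207 passed with the block at 1 h, against 107 without it.

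At 2 h 0 genes were higher and 4 lower, with 6.98% of all genes called (2.74% higher and 4.25% lower). Gpr84 was 7.88, 7.38 and 7.74 in inhibitor cells and 8.81, 8.61 and 9.02 in control cells, lower by 2.22-fold (adjusted p = 9.03e-05). P2ry13, a Gi-coupled receptor for ADP, was 7.01, 7.03 and 7.14 in inhibitor cells and 8.42, 7.80 and 7.90 in control cells, a difference of -0.98 ± 0.20 (adjusted p = 0.00342). These were the clearest of the 4 differences and kept their calls in every alternative in which the gene was tested. Gpr18, a receptor for which lipid ligands have been proposed, differed by -0.78 ± 0.19 (adjusted p = 0.0154), with only 1 of 3 inhibitor arrays above the floor. This call ended without replicate 2 or 3 of the inhibitor group (adjusted p = 0.0597 and 0.0653) or replicate 1 of the control group (0.11). Gpr65 differed by -0.76 ± 0.21 (adjusted p = 0.0303), and its call ended with no filter on dim probes (0.0516), without inhibitor replicate 1 (0.13) or 3 (0.0625) and without control replicate 2 (0.154) or 3 (0.137). With the replicate number as a block 7 genes were lower at 2 h: P2ry14 (adjusted p = 0.000268), Gpr171 (0.0313) and C5ar1 (0.0475) were added to the 4. Over all 8189 genes tested 1155 passed with the block at 2 h in either direction, against 572 without it. Without the block the first P2ry14 probe differed by -0.65 and did not pass. Another bright P2ry14 probe did pass (-0.69 ± 0.17, adjusted p = 0.015), and a dimmer one did not (-0.65 ± 0.26, 0.18).

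At 4 h 2 genes were higher and 9 lower, where 22.8% of all genes were called, 12.6% higher and 10.2% lower. Centring on housekeeping genes gave 1 higher and 15 lower of the 40, and cyclic loess 2 higher and 10 lower. Of all genes called 55.1% were higher, against 25.3% after centring and 40.7% after loess. The groups did not overlap for 14 of the 40, against 35% of all genes. The median difference of the 40 was -0.02, beside 0.04 over all genes.

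Among the 7 nucleotide and nucleoside receptors 1 was higher and 2 were lower at 4 h. P2ry13 was 6.28, 6.34 and 6.32 in inhibitor cells, below the floor on every array, and 9.15, 8.59 and 8.32 in control cells. The transcript was thus not well above background in inhibitor cells, and control cells held at least 4.70-fold more of it (means 6.31 ± 0.03 and 8.69 ± 0.43, SD, n = 3 each, limma adjusted p = 5.23e-08). P2ry14, the receptor for UDP-glucose and related sugar nucleotides, was 12.30, 11.76 and 11.69 in inhibitor cells and 13.85, 13.21 and 13.30 in control cells. It was lower by 2.89-fold (log2 difference -1.53 ± 0.22, adjusted p = 3.9e-05). P2ry1, a Gq-coupled ADP receptor, went the other way, at 8.01, 7.56 and 7.87 in inhibitor cells and 7.30, 6.84 and 6.81 in control cells. The groups were apart by a narrow margin, and the difference of 0.83 ± 0.26 (adjusted p = 0.0228) lost its call on centring the arrays on housekeeping genes (0.0761) and without inhibitor replicate 1 (0.0817) or 3 (0.067) or control replicate 2 (0.0765) or 3 (0.0824). The other 4 nucleotide and nucleoside receptors did not pass: P2ry6, P2ry12, P2ry2 and Adora3. P2ry2, for ATP and UTP and below the floor in control cells, had means of 6.53 in inhibitor cells and 6.26 in control cells (adjusted p = 0.0787, and 0.0307 with the block). Adora3, an adenosine receptor below the floor in inhibitor cells, had means of 6.24 in inhibitor cells and 6.60 in control cells (0.0809, and 0.0236 with the block).

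Gpr84 had the smallest adjusted p of the 40 at this time. Its levels were 7.67, 7.91 and 7.71 in inhibitor cells and 10.20, 9.57 and 10.07 in control cells, lower by 4.55-fold (log2 difference -2.18 ± 0.16, adjusted p = 8.03e-09). A second Gpr84 probe gave -2.00 ± 0.14 (adjusted p = 3.74e-09). Gpr18 was 6.95, 6.92 and 6.79 in inhibitor cells and 8.51, 8.11 and 7.83 in control cells, lower by 2.41-fold (adjusted p = 7.38e-05). Gpr176, an orphan receptor known from the circadian pacemaker of the mouse brain, was 7.72, 8.02 and 7.93 in inhibitor cells and 8.87, 9.0 and 8.85 in control cells (-1.01 ± 0.13, adjusted p = 7.02e-06). Gpr171, a receptor for the neuropeptide BigLEN, was 6.82, 6.58 and 6.5 in inhibitor cells and 7.82, 7.63 and 7.46 in control cells (-1.0 ± 0.18, adjusted p = 0.0003). In all 4 of these Gpr-numbered genes every inhibitor array was below every control array. The other 11 Gpr-numbered genes did not pass at 4 h, Gpr65 among them at a difference of 0.02.

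Among lipid, complement and adhesion receptors, 1 of 8 was lower at 4 h. This was Lpar1, a lysophosphatidic acid receptor, at 6.76, 6.38 and 6.84 in inhibitor cells (2 of 3 arrays above the floor) and 7.88, 7.01 and 7.70 in control cells. The difference was -0.87 ± 0.16 (adjusted p = 0.000437) with no overlap. S1pr2, a sphingosine 1-phosphate receptor, differed by -0.52 ± 0.19 with an adjusted p of 0.06, and of 0.0439 with the replicate block. C5ar1, the receptor for complement C5a, differed by -0.47 (0.11). Adgre1, a marker of mature mouse macrophages, differed by 0.32 (0.0879, and 0.014 with the block). Neither chemokine receptor tested, Cxcr4 and Cx3cr1, passed at any time between inhibitor and control cells.

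Of the 8 Rgs genes 1 was higher and 2 were lower at 4 h. Rgs14, which also scaffolds Ras and MAP kinase proteins, was 6.18, 6.22 and 6.29 in inhibitor cells, below the floor throughout, and 8.01, 7.28 and 7.38 in control cells. Control cells held at least 2.14-fold more (means 6.23 and 7.55, adjusted p = 1.12e-06). Rgs16, an LPS-inducible regulator of Gi and Gq, was 7.02, 7.01 and 7.11 in inhibitor cells and 7.71, 7.30 and 7.73 in control cells (-0.53 ± 0.13, adjusted p = 0.00546). Without all 8 arrays of replicate 1, a fit with 8 residual degrees of freedom in place of 16, the difference was -0.45 (adjusted p = 0.0504). Rgs10, which dampens inflammatory signalling in mouse macrophages and microglia, was 11.59, 11.58 and 11.65 in inhibitor cells and 10.91, 10.96 and 11.22 in control cells. It was higher by 1.49-fold (0.58 ± 0.09, adjusted p = 0.000153).

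**Figure D2:**
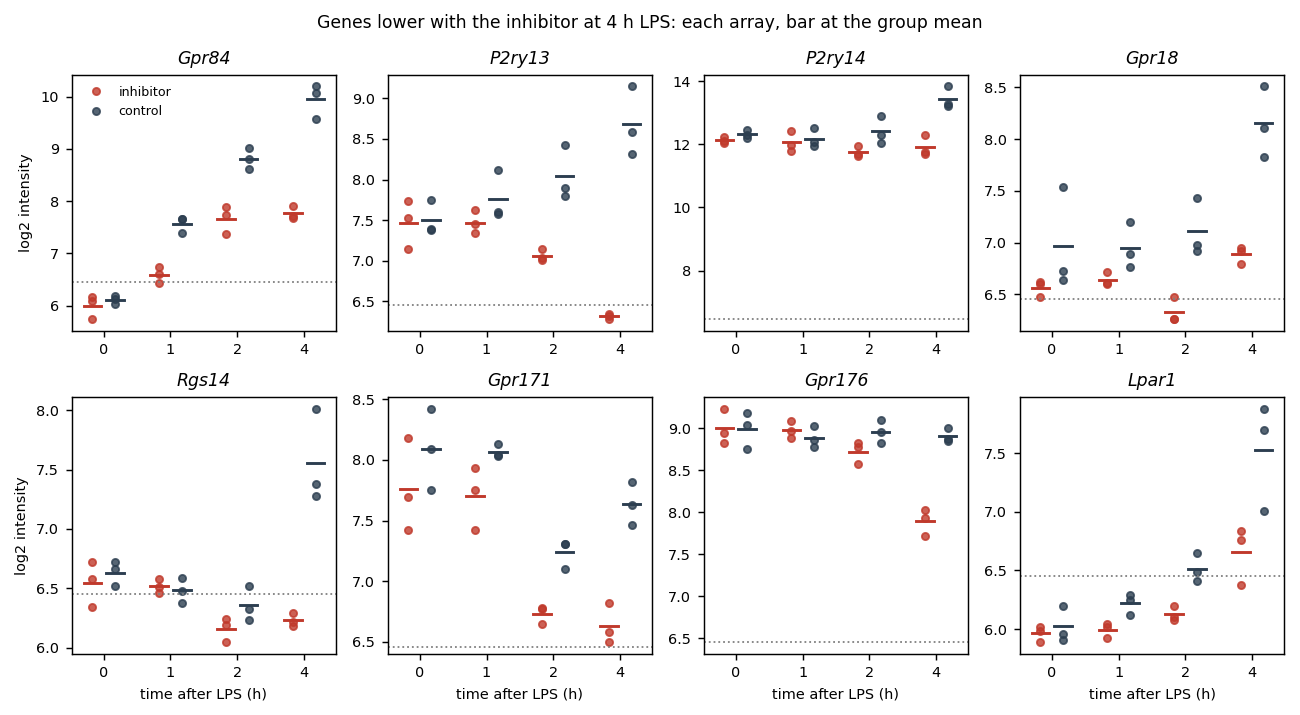
Log2 intensity on each array (points) and group mean (bars) for 8 genes lower with the inhibitor at 4 h, against hours of LPS, with inhibitor cells left and control cells right at each time. The dotted line is the floor at 6.455, and each panel has its own axis. At 4 h every inhibitor array lies below every control array, and P2ry13 and Rgs14 lie below the floor in inhibitor cells.

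Several of these genes are neighbours in the genome. On chromosome 3, Gpr171 and P2ry14 are adjacent, P2ry13 follows with 1 annotated gene between, and P2ry12 is next to P2ry13. At 4 h the first 3 were lower in inhibitor cells, as above, and P2ry12, the platelet and microglial ADP receptor, differed by -0.13 ± 0.14 with both group means (6.24 and 6.37) below the floor. On chromosome 14 Gpr18 and Gpr183 are adjacent. Gpr183 was below the floor on every array of both groups at 4 h, so no fold is given. Whether neighbouring genes moved together more than others was not tested.

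The next comparison asked whether the inhibitor effect under LPS differed from that before LPS, which is the same as the difference between the LPS responses of inhibitor and control cells. No gene of the 40 passed at 1 h, by limma with 2 at an unadjusted p under 0.05, where 0.0244% of all genes passed. At 2 h 1 did, a negative difference (0.879% of all genes, 0.232% positive and 0.647% negative). At 4 h 1 difference was positive and 6 were negative, where 7.94% of all genes passed (4.13% positive and 3.81% negative).

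At 4 h the LPS response of P2ry14 was lower in inhibitor cells than in control cells, with a difference of -1.35 ± 0.31 log2 units (adjusted p = 0.0104), and that of Gpr176 differed by -1.02 ± 0.18 (0.00123). Both were above the floor on every array concerned. For the next genes a group lay below the floor, so the fitted difference gives a direction and no exact size. P2ry13 (fitted -2.33, adjusted p = 3.22e-05) and Rgs14 (-1.23, 0.000625) were below it in inhibitor cells at 4 h, and Gpr84 (-2.07, 7.83e-06) in both treatments at 0 h. These 5 kept their calls in every alternative in which they were tested. Lpar1, below the floor in both treatments at 0 h, had a fitted difference of -0.81 (adjusted p = 0.0295), a call that ended with background subtraction (0.0768), without all replicate 1 arrays (0.0629) and without single arrays: inhibitor replicate 2 at 4 h (0.0851), control replicate 1 (0.0855) or 3 (0.0745) at 4 h, inhibitor replicate 2 at 0 h (0.0671) and control replicate 2 (0.0698) or 3 (0.0711) at 0 h. Rgs10 differed by 0.53 ± 0.13 (adjusted p = 0.0168), and this call ended on housekeeping centring (0.143), cyclic loess (0.0748), without all replicate 1 arrays (0.0772) and without inhibitor replicate 2 at 0 h (0.0546). Gpr18 (-0.86 ± 0.28) and Gpr171 (-0.68 ± 0.25) had adjusted p of 0.00244 and 0.0377 with the replicate block, against 0.0608 and 0.107 without it. At 2 h the fitted difference of Gpr84 was -1.03 (adjusted p = 0.0349). That call ended with no filter (0.0515), with background subtraction (0.101) and without any of 9 single arrays. These were inhibitor replicates 2 (0.0931) and 3 (0.0742) and control replicates 1 (0.0744) and 3 (0.0953) at 2 h, and inhibitor replicates 2 (0.11) and 3 (0.102) and control replicates 1 (0.0617), 2 (0.102) and 3 (0.071) at 0 h.

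**Figure D3:**
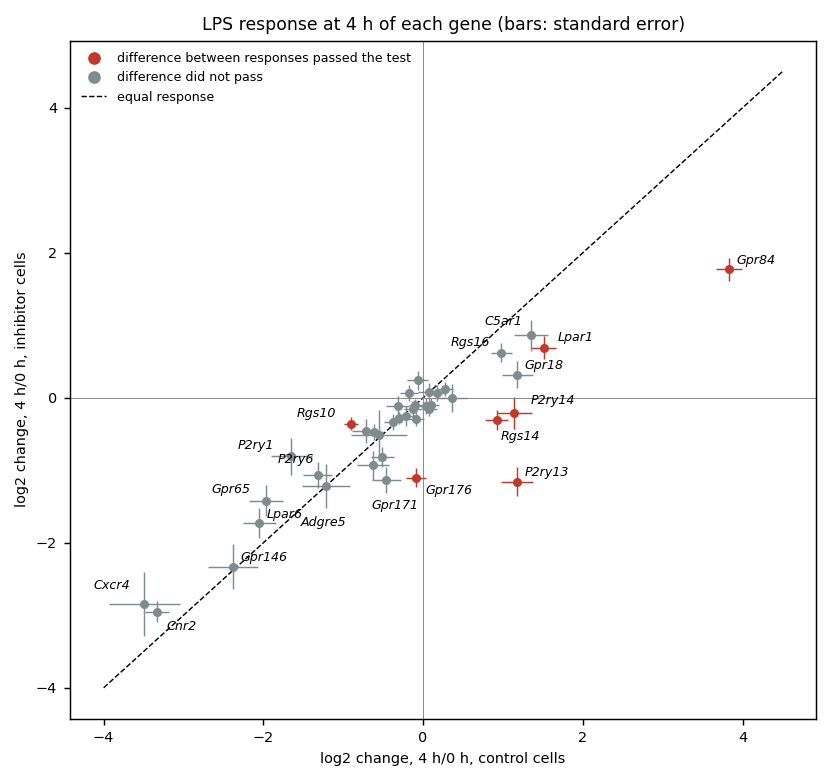
Log2 change from 0 h to 4 h of LPS for each of the 40 genes in inhibitor cells (vertical axis) and control cells (horizontal axis), with standard errors as bars. The dashed line marks equal responses. The 7 genes in red passed the test of the difference, and 6 of them lie below the line. Changes in which a group lies below the floor are understated.

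The LPS time course gave the background to these differences. At 1 h 2 genes rose and 1 fell in inhibitor cells (3.21% of all genes called, 1.73% higher and 1.48% lower), and likewise in control cells (3.21%, 2.15% higher and 1.06% lower). At 2 h 2 rose and 13 fell in inhibitor cells (17.9% of all genes called, 7.41% higher and 10.5% lower), and 4 rose and 13 fell in control cells (25.2%, 10% higher and 15.2% lower). At 4 h 4 rose and 19 fell in inhibitor cells (46.4% of all genes: 19.7% higher and 26.7% lower), and 9 rose and 16 fell in control cells (52.5%: 19.8% higher and 32.7% lower). The balance of rises and falls depended on the scaling in control cells: at 4 h 15 of the 40 rose and 11 fell after centring on housekeeping genes, and 10 rose and 15 fell after cyclic loess. In inhibitor cells 4 rose and 15 fell after centring, and 5 rose and 17 fell after loess. Of all genes called at 4 h in control cells 37.7% were higher, against 70.8% after centring and 53.4% after loess. The LPS comparisons share no array between treatments, but each shares its arrays with the comparisons of inhibitor and control cells above. All 16 genes that fell at 4 h in control cells also fell in inhibitor cells, where they were 84.2% of the 19. The 4 that rose in inhibitor cells were among the 9 that rose in control cells (44.4% of those). The same overlap over all genes tested is not given here, so these counts mark nothing particular to the 40.

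Gpr84 was the receptor that rose most. It was below the floor at 0 h, at 5.74, 6.16 and 6.09 in inhibitor cells and 6.13, 6.04 and 6.18 in control cells, so its rise is a lower bound. By 4 h it was at least 2.48-fold higher in inhibitor cells (means 7.76 and 6.00, adjusted p = 2.88e-08) and at least 11.3-fold higher in control cells (means 9.95 and 6.12, adjusted p = 2.96e-13). In inhibitor cells the level at 4 h (7.76 ± 0.13, SD, n = 3) differed by 0.10 ± 0.16 from that at 2 h (7.66 ± 0.26, adjusted p = 0.695). In control cells the step from 2 h to 4 h was a further 1.13 ± 0.16 (adjusted p = 2.41e-05).

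Rises at 4 h that passed in both treatments were those of C5ar1, Lpar1 and Rgs16 besides Gpr84. C5ar1 was 6.97, 7.62 and 6.96 at 4 h in inhibitor cells and 7.80, 7.94 and 7.23 in control cells. Below the floor at 0 h, it was at least 1.66-fold higher in inhibitor cells (means 7.18 and 6.32, adjusted p = 0.00196) and at least 2.30-fold higher in control cells (7.66 and 6.31, 1.7e-05). Lpar1, also below the floor at 0 h, was at least 1.15-fold higher in inhibitor cells (6.66 and 5.97, 0.00141) and at least 2.11-fold higher in control cells (7.53 and 6.03, 1.56e-07). Rgs16 rose by 0.62 ± 0.13 in inhibitor cells (adjusted p = 0.000714) and by 0.98 ± 0.13 in control cells (3.57e-06). Rgs16 was the only Rgs gene that had risen by 1 h, by 0.51 in inhibitor cells (0.0346) and 0.50 in control cells (0.0365), and neither early call was firm. The call in inhibitor cells ended without replicate 1 (0.127) or 3 (0.199) at 1 h or 1 (0.062), 2 (0.0524) or 3 (0.194) at 0 h, and that in control cells without replicate 1 (0.291) or 3 (0.119) at 1 h or 1 (0.07), 2 (0.0832) or 3 (0.171) at 0 h. Gpr84 had also risen by 1 h, at least 1.10-fold in inhibitor cells (means 6.59 and 6.00, 0.0467, a call that ended without any 1 of the 6 arrays, at 0.0552 to 0.21) and at least 2.17-fold in control cells (7.57 and 6.12, 4.06e-06). The mean Rgs16 level was highest at 2 h in both treatments, at 7.52 in inhibitor cells and 7.75 in control cells. The step from 2 h to 4 h was -0.47 ± 0.13 in inhibitor cells (0.0102), and the control mean at 4 h was 7.58.

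The other 5 rises at 4 h passed in control cells alone. P2ry13 changed in opposite directions: inhibitor cells held at least 2.02-fold less at 4 h than at 0 h (means 6.31 and 7.47, adjusted p = 9.42e-05), while in control cells it rose by 1.18 ± 0.20 (adjusted p = 5.52e-05). P2ry14 differed from 0 h by -0.21 ± 0.22 in inhibitor cells (adjusted p = 0.453) and rose by 1.14 ± 0.22 in control cells (0.000242). Rgs14 was not well above background at 4 h in inhibitor cells (means 6.23 at 4 h and 6.54 at 0 h, 0.0778) and rose by 0.92 ± 0.14 in control cells (1.9e-05). For these 3 the difference between treatments was itself significant, as given above. Gpr18 differed by 0.32 ± 0.19 in inhibitor cells (0.181, and 0.0346 with the block) and rose by 1.18 ± 0.19 in control cells (3.92e-05). Rgs3 gave 0.27 ± 0.10 in control cells (0.0381) by its brightest probe, 0.25 ± 0.10 (0.0422) by a second and -0.25 ± 0.11 (0.0631) by another, so no direction is given for this gene. The call also ended with no filter (0.0512) and without control replicate 2 (0.111) or 3 (0.131) at 4 h or 1 (0.12) or 2 (0.0683) at 0 h.

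Gpr176 fell in inhibitor cells without a rise in control cells. In control cells it stayed between 8.75 and 9.18 on the arrays of 0 h and differed by -0.09 ± 0.13 at 4 h (adjusted p = 0.588). In inhibitor cells it fell by 1.10 ± 0.13 at 4 h (6.37e-07), most of it after 2 h (-0.83 ± 0.13 from 2 h to 4 h, 6.23e-05). Gpr171 fell in both, by 1.13 ± 0.18 at 4 h in inhibitor cells (2.84e-05) and by 0.46 ± 0.18 in control cells (0.0354). The control call for Gpr171 ended after housekeeping centring (0.487), cyclic loess (0.0812) and no filter (0.0608), and without replicate 2 (0.0714) or 3 (0.133) at 4 h or replicate 2 (0.208) or 3 (0.0732) at 0 h.

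Cxcr4, the receptor for the chemokine CXCL12, and Cnr2 fell furthest by 4 h in both treatments. Cnr2, the cannabinoid receptor of immune cells, was 8.6, 9.26 and 9.02 in inhibitor cells and 9.40, 9.38 and 9.26 in control cells at 0 h. It had fallen by 1.22 ± 0.15 at 1 h in inhibitor cells (adjusted p = 1.45e-05) and by 1.33 ± 0.15 in control cells (4.03e-06), the only fall called at that time. At 4 h every array of both treatments was below the floor, a fall of at least 5.67-fold in inhibitor cells (means 6.01 and 8.96, 4.26e-12) and at least 7.42-fold in control cells (6.01 and 9.35, 4.9e-13). Cxcr4, which holds cells in CXCL12-rich niches such as bone marrow, spread widely at 0 h, at 10.06, 8.69 and 8.28 in inhibitor cells and 10.36, 9.59 and 8.62 in control cells. At 4 h it lay between 5.99 and 6.22 on all 6 arrays, a fall of at least 5.88-fold in inhibitor cells (means 6.17 and 9.01, 2.42e-05) and at least 8.39-fold in control cells (6.03 and 9.52, 1.29e-06).

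Lpar6, a lysophosphatidic acid receptor coupled to G12 and G13 proteins, fell early and partly recovered. Its levels at 2 h were 7.25, 7.43 and 7.28 in inhibitor cells and 7.02, 7.21 and 6.76 in control cells, with changes from 0 h of -2.5 ± 0.21 in inhibitor cells (adjusted p = 3.59e-08) and -3.0 ± 0.21 in control cells (1.87e-09). From 2 h to 4 h it rose by 0.78 ± 0.21 in inhibitor cells (0.00861) and by 0.95 ± 0.21 in control cells (0.00197). S1pr2 also fell and then rose, and in inhibitor cells its means at 0 h and 4 h were equal (7.51 ± 0.33 at both, SD, n = 3). That equality depended on replicate 1. Without all replicate 1 arrays S1pr2 was lower at 4 h than at 0 h in inhibitor cells, as given under the dependence on processing. In control cells it was 8.03 ± 0.22 at 4 h and 7.68 ± 0.11 at 0 h, a difference that did not pass (0.36 ± 0.19, adjusted p = 0.129). S1pr2 fell at 2 h by 0.86 ± 0.19 in inhibitor cells (0.00329) and by 0.72 ± 0.19 in control cells (0.00826), and rose from 2 h to 4 h by 0.86 ± 0.19 (0.00214) in inhibitor cells and 1.08 ± 0.19 (0.000286) in control cells.

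Gpr146, studied in the mouse as a regulator of hepatic cholesterol, was 8.09, 9.67 and 9.54 at 0 h in inhibitor cells and 8.45, 9.51 and 9.39 in control cells. At 4 h it was 6.91, 6.71 and 6.70 in inhibitor cells and 6.91, 6.71 and 6.59 in control cells. It fell by 2.33 ± 0.31 at 4 h in inhibitor cells (adjusted p = 4.15e-06) and fell by 2.38 ± 0.31 in control cells (2.09e-06), and its second probe gave -1.72 and -1.95. Gpr65 fell by 1.42 ± 0.21 at 4 h in inhibitor cells (1.65e-05) and by 1.97 ± 0.21 in control cells (1.75e-07), to 8.0, 7.99 and 7.82 in inhibitor cells and 8.17, 7.84 and 7.75 in control cells. The Gpr65 levels of both treatments overlapped at 4 h. Gpr183 ended below the floor in both, at least 1.19-fold lower in control cells (means 6.09 and 6.70, 0.000171) and with no fold given in inhibitor cells.

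Nucleotide receptors other than P2ry13 and P2ry14 fell or stayed. P2ry6, the UDP receptor, fell by 1.07 ± 0.18 at 4 h in inhibitor cells (adjusted p = 6.43e-05) and by 1.32 ± 0.18 in control cells (3.56e-06). P2ry1 fell by 0.81 ± 0.26 in inhibitor cells (0.0144) and by 1.65 ± 0.26 in control cells (2e-05). The P2ry1 call in inhibitor cells ended without replicate 2 at 4 h (0.0644) or replicate 2 or 3 at 0 h (0.0648 and 0.0649), and the difference between the 2 falls, 0.85 ± 0.36, had an adjusted p of 0.181. Adora3 was at least 1.52-fold lower in inhibitor cells (means 6.24 and 7.06, 0.000108) and fell by 0.51 ± 0.14 in control cells (0.00547), a call lost on housekeeping centring (0.228). P2ry2 and P2ry12 passed at no time against 0 h.

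Of the tested genes 1 of 3 adhesion receptors and 3 of 8 Rgs genes fell at 4 h in both treatments. Adgre5, known as CD97, fell by 1.22 ± 0.30 at 4 h in inhibitor cells (adjusted p = 0.00251) and by 1.22 ± 0.30 in control cells (0.00203), and its 2 other probes passed in the same direction in both. Rgs10 fell by 0.36 ± 0.09 in inhibitor cells (0.00392) and by 0.90 ± 0.09 in control cells (1.56e-07). The call in inhibitor cells ended with cyclic loess (0.131) and, at a change of -0.30, without all replicate 1 arrays (0.0504). Rgs2 was at least 1.61-fold lower at 4 h in inhibitor cells (means 6.22 and 7.14, 0.000656) and at least 1.29-fold lower in control cells (6.19 and 6.83, 0.0105), the second call being lost on housekeeping centring (0.15). Rgs12 fell by 0.46 ± 0.17 in inhibitor cells (0.038) and by 0.72 ± 0.17 in control cells (0.00175). The call for Rgs12 in inhibitor cells ended on housekeeping centring (0.0808), with no filter (0.066) and without replicate 1 (0.125) or 2 (0.0719) at 4 h or 2 (0.203) or 3 (0.0608) at 0 h. Adgre1, Adgrd1 and Rgs19 did not pass at 4 h in either treatment.

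The remaining Gpr-numbered genes moved by small amounts. Gpr107, which has a role in trafficking through the secretory pathway, fell at 2 h by 0.41 ± 0.13 in inhibitor cells (adjusted p = 0.0357) and by 0.43 ± 0.13 in control cells (0.0204). Both falls ended on housekeeping centring (0.0727 in inhibitor cells and 0.14 in control cells), and cyclic loess (0.0604 and 0.0629). In inhibitor cells the fall also ended without replicate 2 (0.0788) or 3 (0.164) at 2 h or 2 (0.111) or 3 (0.114) at 0 h, and in control cells without replicate 2 at 2 h (0.121) or replicate 2 (0.0751) or 3 (0.0515) at 0 h. Gpr137b fell by 0.29 at 4 h in inhibitor cells (0.0276), where its other probe gave -0.08 (0.778). The call ended on housekeeping centring (0.121), cyclic loess (0.192) and without replicate 2 (0.0604) or 3 (0.14) at 4 h or 1 (0.0798) or 3 (0.0693) at 0 h. Gpr19 and Gpr180 were close to the floor throughout, and their falls at 4 h in both treatments ended on housekeeping centring.

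**Figure D4:**
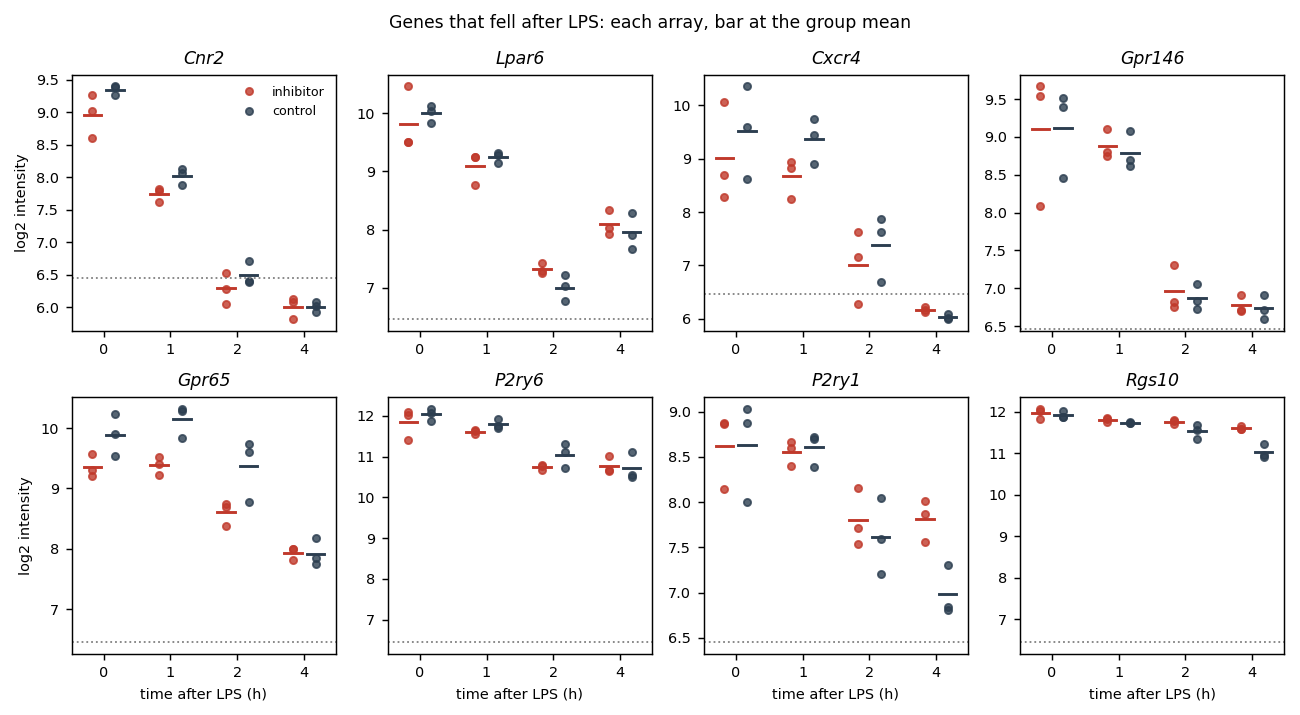
Log2 intensity on each array (points) and group mean (bars) for 8 genes that fell after LPS, against hours of LPS, with inhibitor cells left and control cells right at each time. The dotted line is the floor at 6.455, and each panel has its own axis. Cnr2 and Cxcr4 end below the floor in both treatments, Lpar6 is lowest at 2 h, and P2ry1 and Rgs10 end higher in inhibitor cells.

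The steps between successive times placed more falls between 1 h and 2 h than between 2 h and 4 h. In that step 2 genes rose and 9 fell in inhibitor cells (10.7% of all genes called, 4.65% higher and 6.01% lower), and 3 rose and 10 fell in control cells (13.2%, 6.18% higher and 7.01% lower). Cnr2, Cxcr4, Gpr146, Gpr171, Gpr65, Lpar6, P2ry6 and Adora3 fell in that step in both treatments, with changes of -0.64 (Adora3) to -1.92 (Gpr146) in inhibitor cells and -0.46 (Adora3) to -2.25 (Lpar6) in control cells. Single arrays ended some of these calls: in inhibitor cells replicate 1 at 2 h for Cxcr4 (0.114) and Gpr65 (0.107), and in control cells the same replicate at 2 h for Adora3 (0.152), Gpr65 (0.153) and P2ry6 (0.0634). Rgs2 fell then in inhibitor cells, by 1.04 ± 0.20 (adjusted p = 0.00139). Between 2 h and 4 h 5 rose and 6 fell in inhibitor cells (29.8% of all genes, 15% higher and 14.8% lower), and 9 rose and 7 fell in control cells (28.2%, 13.3% higher and 14.9% lower). The rises of that step in control cells included Rgs14 by 1.20 ± 0.14 (3.07e-06), Gpr18 by 1.04 ± 0.19 (0.000409), P2ry14 by 1.04 ± 0.22 (0.00142) and Lpar1 by 1.01 ± 0.16 (7.4e-05). P2ry13 fell in that step in inhibitor cells, at least 1.52-fold (means 6.31 and 7.06, 0.00755), and rose by 0.65 ± 0.20 in control cells (0.0199). That last call ended without control replicate 1 at 4 h (0.147) or replicate 2 (0.105) or 3 (0.0815) at 2 h.

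Of the 40 genes 10 passed in none of the 17 comparisons in the main fit, which has no replicate block. They were Adgrd1, Adgre1, Cx3cr1, Gpr108, Gpr137, Gpr149, Gpr89, P2ry12, Rgs19 and Rgs7bp. With the block some of them passed, among them Adgre1 and Rgs7bp, as given in their own passages. Genes never called were not counted over all genes tested, so 10 of 40 marks nothing particular to the 40. Rgs7bp encodes a protein that anchors RGS complexes and is not itself an RGS protein. Cx3cr1, the fractalkine receptor of resident macrophages, lay between 6.18 and 6.67 on the 24 arrays, at the floor. Of the 95 genes that matched by symbol and were not tested, Ccr1, Ccr2, Ccr7, C3ar1, C5ar2, Gpr34, S1pr1 and Rgs18 were among those not above the floor, and Gpr132, a second proton-sensing receptor, was above it on 6 arrays, never on all 3 of a group. Adora2a and Adora2b were not analysed here. Second probes above the floor existed for 9 genes (14 probes). In 238 comparisons no 2 probes were both called in opposite directions: both were called alike in 36, the first alone in 4 and the second alone in 3. An Rgs3 probe called alone went against the first probe, in inhibitor cells against 0 h. It was lower at 2 h (-0.38, limma adjusted p = 0.0219) and 4 h (-0.32, 0.0239), where the first probe gave 0.30 and 0.12 without a call.

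Signalling genes downstream of the receptors were taken from a list. Of 84 listed genes for G protein subunits, adenylyl cyclases, phosphodiesterases, kinases, arrestins and related enzymes, 75 were on the array and 51 were tested. None was higher in inhibitor cells at 0, 1 or 2 h, and 0, 1 and 2 were lower: Pde4b at 1 h (-0.64 ± 0.11, adjusted p = 0.00219), and Pik3r6 (-0.78 ± 0.16, 0.00278) and the PI3K gamma catalytic subunit gene Pik3cg (-0.53, 0.0258) at 2 h. These were 0%, 1.96% and 3.92% of the list, against 0.159%, 1.31% and 6.98% of all genes. At 4 h 2 were higher and 7 lower (17.6% of the list, against 22.8% of all genes), with a median of -0.05 over the list beside 0.04 over all genes. The lower ones included Gnb4, a G protein beta subunit (-1.14 ± 0.25, adjusted p = 0.002), Gna15, an alpha subunit of the Gq class (-1.12 ± 0.20, 0.000423), Crem, a cAMP-responsive transcription factor (-0.94 ± 0.28, 0.0181), and Pik3r6, a regulatory subunit of PI3K gamma (-0.82 ± 0.16, 0.000644). The higher ones were Gna11, a Gq-class alpha subunit (0.63 ± 0.15, 0.00466), and Grk5, a receptor kinase (0.63 ± 0.15, 0.0044).

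After 4 h of LPS 10 of these 51 genes rose and 15 fell in inhibitor cells (49% of the list, against 46.4% of all genes), and 11 rose and 17 fell in control cells (54.9%, against 52.5%). Pde4b, the LPS-inducible cAMP phosphodiesterase, was at least 1.62-fold higher in inhibitor cells (means 7.15 and 5.97, adjusted p = 3.04e-08) and at least 1.94-fold higher in control cells (7.41 and 6.09, 4.22e-09). Gnb4 rose by 0.65 ± 0.25 in inhibitor cells (0.0377) and by 1.92 ± 0.25 in control cells (2.06e-06), and these responses differed by -1.27 ± 0.35 (0.0286). The beta-arrestin gene Arrb1, whose product uncouples receptors, fell by 1.12 ± 0.14 in inhibitor cells (1.69e-06) and by 1.14 ± 0.14 in control cells (8.78e-07). Arrb2, the other beta-arrestin gene, differed by -0.35 ± 0.17 in inhibitor cells (0.102) and fell by 0.92 ± 0.17 in control cells (0.00013). Adcy9, an adenylyl cyclase, fell by 1.11 ± 0.14 in inhibitor cells (3.48e-06) and by 1.16 ± 0.14 in control cells (1.27e-06).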

How the data were processed

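Total RNA was measured on 24 one-colour Illumina bead arrays, 3 in each of 8 groups taken from the sample labels. The values used are the deposited log2 intensities as processed by the authors (5.354 to 15.172). Their ranked values were nearly the same on every array (99th percentile of the spread 0.004), and no label states the background correction or normalisation. The submitters' processing notes name limma. A further 72 columns of scanner values could not be tied to samples and were not used. Of 25697 probes 23978 carried 1 symbol and 1719 none. The probe of highest mean was kept per gene, and 8189 of 18312 genes passed the floor. A linear model over the 8 groups (16 residual degrees of freedom) was fitted with limma 3.58.1 in R 4.3.3, and 17 comparisons were tested with Benjamini-Hochberg adjustment. The fit was tested on simulated data with 200 changed genes. The number of arrays limits the precision, with a median residual SD of 0.168 over all genes and 0.179 over the 40. Folds against a group with all 3 arrays under the floor are lower bounds.

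Replicate numbers paired the samples: deviations of same-numbered samples correlated at 0.11 to 0.85 in all 84 pairs (median 0.47). In 168 pairs of different number the median was -0.35 (-0.73 to 0.36). Deviations cancel within a group, so this negative median follows in part from the positive one and is no separate evidence. The pairing comes from the numbers in the sample titles. The members and gene lists were chosen with earlier results of these data known. Named were genes called for the inhibitor or its difference between times, the largest LPS rises and falls, a fixed panel of receptors and Rgs genes, and the largest changes of the signalling list. Alternatives were the replicate block, centring on 7 housekeeping genes, cyclic loess, no filter, a filter over all 24 arrays, the filter applied before the choice of probe, background subtraction, leaving out each array, and, chosen after seeing the data, leaving out all replicate 1 arrays.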

Additional observations from a re-analysis of the deposited data

Results flagged for a closer look

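For 7 genes the inhibitor effect differed between LPS times by a direct test of the difference (limma, the effect at the later time minus the effect at 0 h). At 4 h this difference was -1.35 ± 0.31 log2 units (SE) for P2ry14, -1.02 ± 0.18 for Gpr176 and 0.53 ± 0.13 for Rgs10. For genes with a group below the floor the fitted values, which are no exact sizes, were -2.33 for P2ry13, -2.07 for Gpr84, -1.23 for Rgs14 and -0.81 for Lpar1 at 4 h, and -1.03 for Gpr84 at 2 h. The cause of these differences was not tested. With 3 arrays a group, no search for single arrays far from their group was made.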

How the results depend on the processing

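Counts of the 40 genes called moved by over 1.5 times mainly where fewer genes were tested. Requiring values above the floor on all 24 arrays left 19 of the 40, and the counts were then 0, 1 and 5 for inhibitor against control at 1, 2 and 4 h, 0, 8 and 10 for LPS at 1, 2 and 4 h in inhibitor cells and 0, 8 and 10 in control cells. In the same setting they were 0 and 3 for the difference of effects at 2 and 4 h, 5 and 7 for the steps from 1 to 2 h and from 2 to 4 h in inhibitor cells, and 6 and 7 in control cells. The replicate block gave 4 and 7 for inhibitor against control at 1 and 2 h and 5 for LPS at 1 h in inhibitor cells. Over all genes tested these 3 comparisons had 207, 1155 and 557 calls with the block, against 107, 572 and 263 without it. The block ended no call of the 40, and changed no other count of the 40 by over 1.5 times. Leaving out all replicate 1 arrays gave 4 for inhibitor against control at 1 h, 5 for LPS at 1 h in inhibitor cells and 2 for the difference of effects at 2 h, which fell to 0 with no filter and with background subtraction. The cause of these last changes was not tested. Without all replicate 1 arrays the same 3 comparisons had 141, 436 and 228 calls over all genes tested, against 107, 263 and 72 with all arrays. In that setting S1pr2 at 4 h against 0 h in inhibitor cells was -0.38 (adjusted p = 0.00481), against 0.00 with all arrays. Leaving out single arrays gave 0 to 0, 2 to 2, 2 to 4 and 10 to 12 calls for inhibitor against control at 0, 1, 2 and 4 h, 1 to 2, 11 to 17 and 19 to 22 for LPS at 1, 2 and 4 h in inhibitor cells and 2 to 3, 15 to 18 and 23 to 25 in control cells. For the difference of effects it gave 0 to 0, 0 to 1 and 5 to 9 at 1, 2 and 4 h, for the steps 9 to 12 and 7 to 10 in inhibitor cells and 8 to 13 and 12 to 16 in control cells. Housekeeping centring moved the median difference over all genes at 4 h to -0.11 from 0.04 for inhibitor against control, to 0.15 from -0.14 for LPS in control cells and to -0.18 from 0.03 for the difference of effects, where 13.3% of calls were then positive, against 52% with the authors' scaling.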

Other observations

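Some genes followed the replicate number. In all 8 groups replicate 1 was the lowest of the 3 arrays for Rgs7bp (6.42 to 6.92, against 6.85 to 7.86 on the other arrays) and Rgs12, and the highest for Adgre5 (8.99 to 10.86, against 8.81 to 10.24), Gpr18 and P2ry14. The share of all genes tested with such an order was not counted, so it marks nothing particular to these genes. Rgs7bp passed in no comparison without the replicate block. With it, Rgs7bp fell at 4 h of LPS by 0.52 in inhibitor cells (limma adjusted p = 0.000492) and by 0.55 in control cells (0.000267). What distinguishes replicate 1 was not tested.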
